A study of Mus musculus with 2 samples.

Results

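Binding of Rfx6 at the genes of the circadian clock was examined in Min6b1 cells, an insulin-secreting mouse β cell line. The 10 genes are Clock, Arntl, Npas2, Per1, Per2, Per3, Cry1, Cry2, Nr1d1 and Nr1d2, of 22367 protein-coding genes of GENCODE M1 outside the mitochondrial chromosome. A peak was given to a gene when its summit, the position of highest signal, lay in the gene or within 20 kb of either end, and 24 of the 23308 peaks met this rule. In the HA-Rfx6 sample, cells in 25 mM glucose had received 24 μg of the plasmid pCMV-Tag2A-3HA-Rfx6, which encodes Rfx6 with a hemagglutinin (HA) tag, and were harvested 2 days later for chromatin immunoprecipitation and sequencing (ChIP-seq) with the anti-HA antibody 12CA5. The HA-Ctrl sample is labelled as Min6b1 cells taken through the same precipitation, although the growth text that both samples share mentions the transfection. Each condition is 1 library, so no value has a replicate error, and HA-Ctrl enters only through the peak calling. The tagged protein came from a plasmid, next to the endogenous Rfx6 of the line, and the labels give neither a synchronisation of the cells nor a time of day. The labelled cell type could not be checked against markers, since bound regions and no transcripts were measured.

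The circadian clock is a feedback loop of transcription that runs in most cells, including those of the islet, where it is known to influence insulin secretion. Clock, or its paralog Npas2, pairs with Bmal1, the product of Arntl, and the pair activates genes that carry E-boxes, among them the Per and Cry genes. Per and Cry proteins return to the nucleus and repress the pair, while Rev-erbα (Nr1d1) and Rev-erbβ (Nr1d2) are nuclear receptors that repress Arntl and other genes through ROR elements.

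Some of the bound DNA at these genes carried the words that clock factors or Rfx proteins recognise, and the sequences of 3 peaks are shown first for that reason. All are from NCBIM37 (mm9), 5′ to 3′ on the strand of the gene. The first and second cover the 200 bp around the summit and the third covers 30 bp around the word itself. In the first, in intron 1 of Cry1 (chr10:84624554-84624753, minus strand), capitals mark the core of the ROR element, TAGGTCA or its complement. In the second, in intron 1 of Nr1d1 (chr11:98635356-98635555, minus strand), capitals mark, in this order, an E-box (CACGTG), a D-box (TTANGTAA, read on either strand) and an X-box, the paired inverted repeat that Rfx proteins bind. In the third, near the Nr1d2 start (chr14:19071175-19071204, minus strand), capitals mark an E-box.
Cry1 intron 1: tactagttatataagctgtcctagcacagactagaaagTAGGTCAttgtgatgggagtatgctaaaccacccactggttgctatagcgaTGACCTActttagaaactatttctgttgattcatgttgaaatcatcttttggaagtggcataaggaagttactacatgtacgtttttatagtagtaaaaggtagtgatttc
Nr1d1 intron 1: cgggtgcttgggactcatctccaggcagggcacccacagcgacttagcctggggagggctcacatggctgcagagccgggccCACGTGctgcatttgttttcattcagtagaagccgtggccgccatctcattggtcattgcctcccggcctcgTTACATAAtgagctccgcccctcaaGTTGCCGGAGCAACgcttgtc
Nr1d2 start: tgccgcactggcCACGTGcacggtgtgttt

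Each of the 10 clock genes had at least 1 summit in the gene or within 20 kb, against 55.2% of all protein-coding genes. The genes are 7.4 to 170 kb long, and among protein-coding genes within that range of length the share was 62.2%. A summit lay inside 8 of the 10 genes, where 31.3% of all genes had one. Promoter summits, meaning those at most 1 kb from where any protein-coding transcript of the gene begins, were found at 8 of the 10, all but Cry1 and Nr1d1, against 22.6% of all genes. The starts of 9 of the 10 lie in CpG-rich DNA, as do those of 44.6% of all protein-coding genes. CpG-rich means a GC content of at least 50% and a CpG ratio, observed over expected, of at least 0.6. Both were taken in the 1000 bp around the most upstream start. Of all genes with such a start, 36.0% had a promoter summit, whereas 8 of these 9 clock genes did. With 10 genes and 1 library, these shares are descriptions and no test was made of them.

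The 24 peaks were unequally spread. Per2 had 6, Cry2 had 5, Npas2 had 3, Per1, Per3 and Nr1d1 had 2 each, and Clock, Arntl, Cry1 and Nr1d2 had 1 each. Thus 6 of the 10 had 2 or more, as did 32.4% of all protein-coding genes. Of the 24 summits, 15 were inside the gene, 4 upstream and 5 downstream of it, and 8 were promoter summits of it. Within 1 kb of a coding start of any gene there were 10 of the 24, or 41.7%, compared with 21.0% of all peaks, the further 2 being at the starts of Hes6 and Msl1. For 10 of the 24 the nearest coding start was that of a neighbouring gene, and 6 of these 10 also lay outside the clock gene. The positions of all 24 are drawn in the map of the 10 genes.

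**Figure D1:**
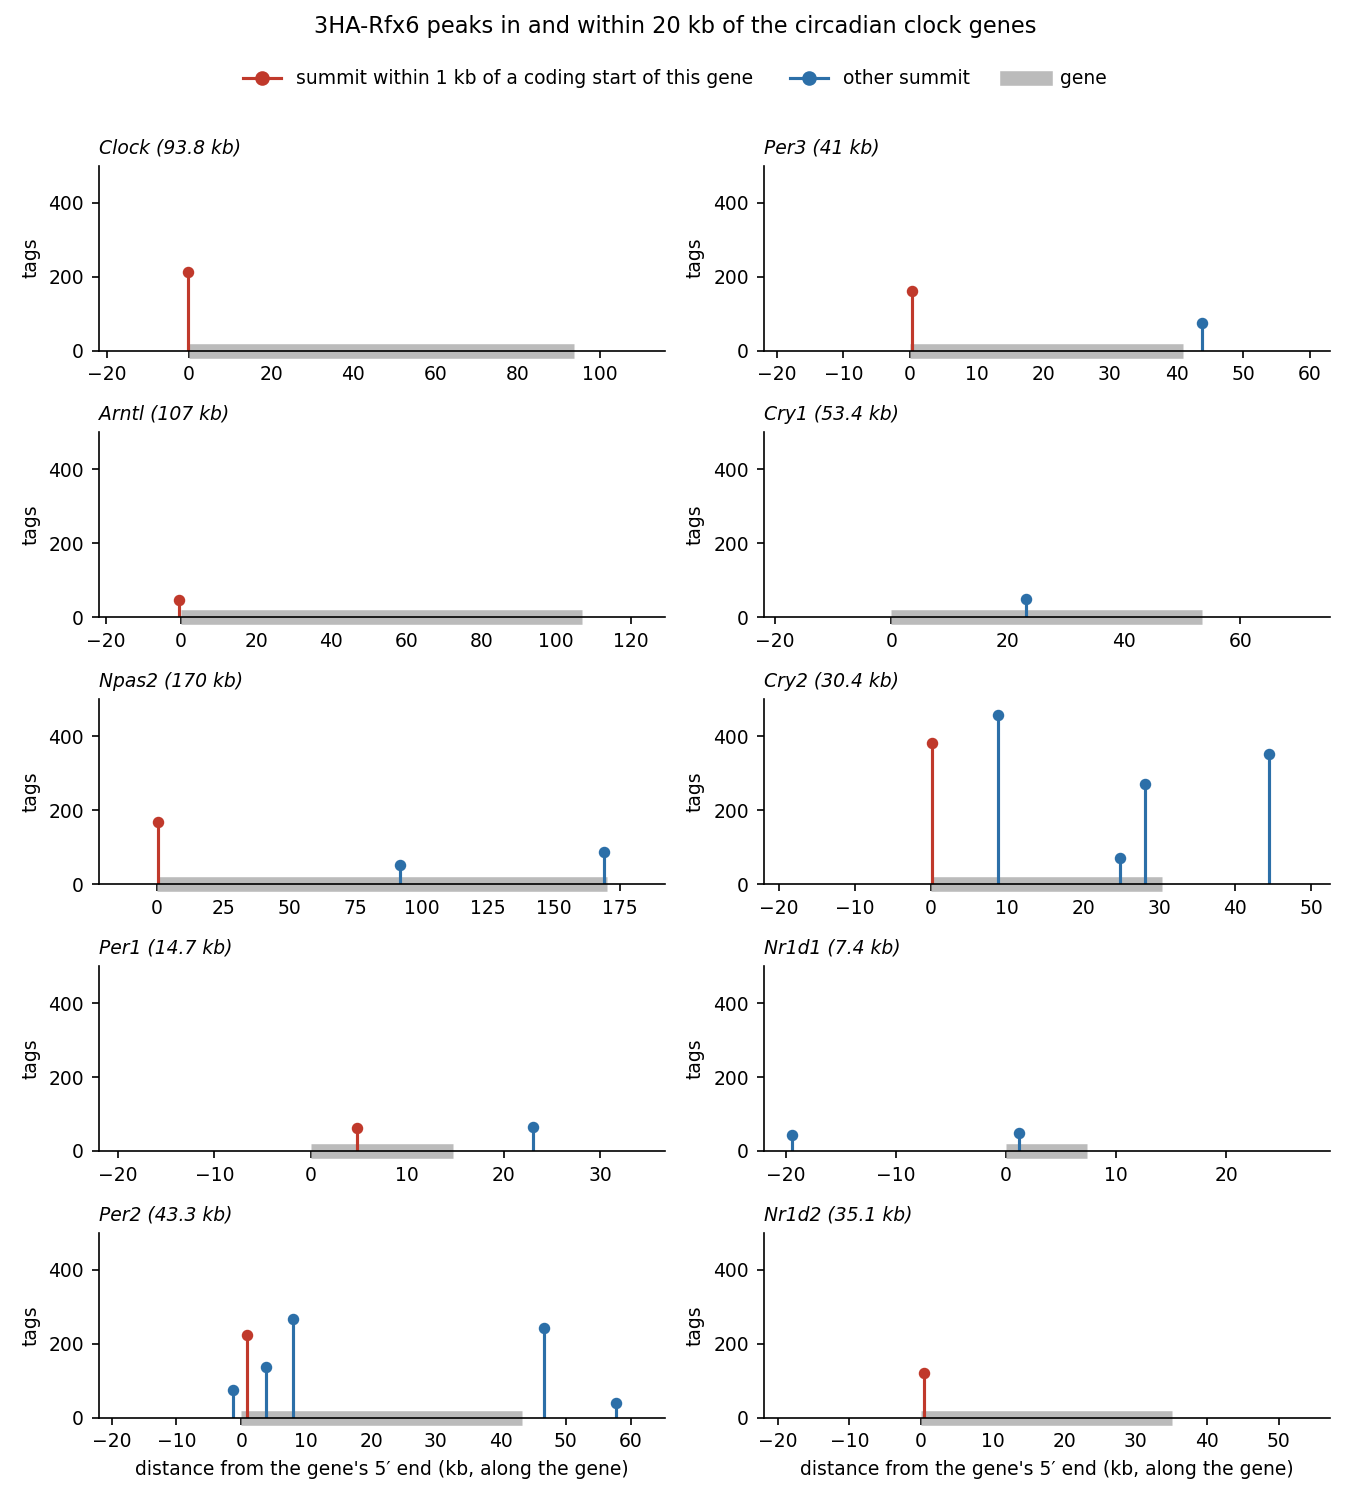
Peaks along each clock gene. The x axis is the distance in kb from the 5′ end of the annotated gene, along its direction, and differs between panels. The y axis is the number of tags in the peak. The grey bar is the gene, and each stem is a peak at its summit, red within 1 kb of a coding start of the gene itself and blue elsewhere. The 5 peaks of Cry2 reach from 72 to 458 tags, while the single peaks of Arntl and Cry1 hold 48 and 49.

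The number of tags, the deposited count of HA-Rfx6 reads in a peak, ranged from 41 to 458 over the 24 peaks with a median of 104, against a median of 73 and a range of 24 to 3489 over all peaks. Intervals given with tags are exact 95% Poisson intervals and cover counting error only. Fold enrichment, the ratio to the background that the peak caller expected from the control and the surroundings, ranged from 4.49 to 46.93. Peaks with at least 182 tags form the top 10% of all peaks, and 8 of the 24 were among them, 7 of these at Cry2 and Per2. The promoter peaks had a median of 163.5 tags, from 48 to 381, and the other 16 had a median of 73.5, from 41 to 458, so the ranges overlapped widely. Peak width differed as well, from 1011 to 3778 bp, which affects tags more than fold enrichment.

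**Figure D2:**
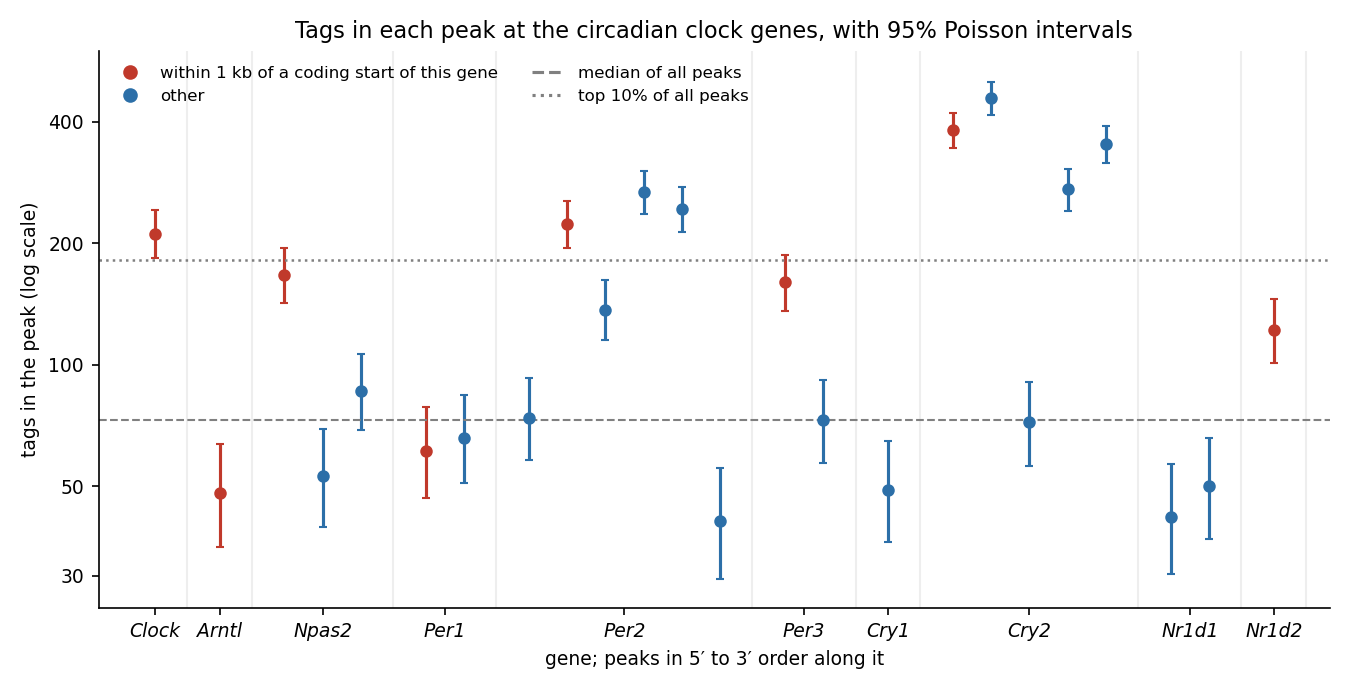
Tags in each of the 24 peaks, grouped by gene in 5′ to 3′ order. The y axis is the number of tags on a log scale, bars are exact 95% Poisson intervals, and red points lie within 1 kb of a coding start of the gene itself. The dashed line is the median of all peaks, 73 tags, and the dotted line, at 182 tags, is the lower limit of the top 10% of all peaks. Cry2, Per2 and Clock have points above the dotted line.

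Among the activators, Clock had the peak with the most tags. Clock (ENSMUSG00000029238.7), which encodes the partner of Bmal1, spans chr5:76639992-76733817 (minus strand). Its peak, from 76733359 to 76735029, had its summit 368 bp upstream of the start of the gene and held 211 tags (183.5 to 241.5), with a fold enrichment of 23.54 and a score, minus 10 times log10 of the p-value, of 1016.06. This tag number was reached by 7.01% of all peaks. The nearest annotated start on the opposite strand was 26446 bp away, that of 4930432L08Rik. The summit sequence (chr5:76734085-76734284, minus strand) is shown because this was the highest peak among the activators, with capitals on a relaxed X-box, a degenerate form of the inverted repeat that allows more bases than the strict X-box at most of its positions, though not at all.
Clock promoter: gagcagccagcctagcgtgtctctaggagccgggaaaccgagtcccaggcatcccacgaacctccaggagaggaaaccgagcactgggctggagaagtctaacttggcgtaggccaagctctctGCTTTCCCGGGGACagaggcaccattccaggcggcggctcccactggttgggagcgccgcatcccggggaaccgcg

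Npas2 (ENSMUSG00000026077.9), the paralog of Clock, spans chr1:39250576-39420079 (plus strand). Its promoter peak held 167 tags (142.6 to 194.3) with a fold enrichment of 13.65, and its summit lay in the untranslated part of exon 1, 97 bp after the start of Npas2-001. Clock thus had 1.26 times as many tags as Npas2 (95% interval 1.03 to 1.56, counting error only) and a fold enrichment 1.72 times as high. Npas2 had other peaks too. One of 53 tags lay in intron 2, with the lowest fold enrichment of the 24, 4.49, and one of 86 tags lay in the untranslated part of the last exon, exon 21, with a fold enrichment of 15.77. The latter summit was 5.0 kb from the start of Rpl31, which encodes a ribosomal protein and is the nearest coding start.

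Arntl (ENSMUSG00000055116.6), which encodes Bmal1, spans chr7:120350979-120457636 (plus strand). It had 1 peak, 576 bp upstream of its start, with 48 tags (35.4 to 63.6), a fold enrichment of 6.59 and a score of 66.99. As many tags or more were found in 80.2% of all peaks. The Clock peak held 4.4 times as many (3.2 to 6.15), so the genes of the activating pair differed in tags beyond counting error, although both had a promoter summit.

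The Period genes encode repressors of the pair, and Per2 was the gene with the most peaks of the 10. Per2 (ENSMUSG00000055866.7) spans chr1:93312561-93355907 (minus strand), and 3.95% of protein-coding genes had 6 or more summits within 20 kb. Its peaks near the start formed a series. The first had its summit 1324 bp upstream of the start, with 74 tags (58.1 to 92.9) and a fold enrichment of 6.74. The next was the promoter peak, 923 bp after the start in intron 1, with 223 tags (194.7 to 254.3) and a fold enrichment of 13.25. Further peaks in intron 1 lay 3.73 kb and 7.98 kb after the start and held 137 tags (115.0 to 162.0) and 268 tags (236.9 to 302.1). The highest was therefore the most distal of the 4, with a fold enrichment of 17.74 and 3.61% of all peaks at or above its tags.

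The remaining Per2 peaks lay beyond the end of the gene, nearer to other starts. The peak 3.33 kb downstream held 243 tags (213.4 to 275.6), with a fold enrichment of 15.77, inside Hes6, and its summit was 566 bp from the start of that gene, which encodes a basic helix-loop-helix repressor of the Hes family. The other, 14.5 kb downstream, held 41 tags, the fewest of the 24, and was 2.74 kb from the start of Ilkap, which encodes a protein phosphatase. The summit sequence of the 268-tag peak (chr1:93347822-93348021, minus strand) is shown as the highest of Per2, with a relaxed X-box in capitals.
Per2 intron 1: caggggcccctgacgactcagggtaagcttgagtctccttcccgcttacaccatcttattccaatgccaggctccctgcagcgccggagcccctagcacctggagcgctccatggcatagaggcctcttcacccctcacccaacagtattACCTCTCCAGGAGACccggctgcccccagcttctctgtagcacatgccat

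Per1 (ENSMUSG00000020893.11, chr11:68908719-68923462, plus strand) had weaker peaks. Its promoter summit lay 111 bp upstream of the start of Per1-005, at 68913654, and 4.82 kb after the most upstream start of the gene, in a peak of 61 tags (46.7 to 78.4) with a fold enrichment of 9.88. The peak with the most tags at Per1, 66 (51.0 to 84.0), lay 8.29 kb downstream of the gene. Its fold enrichment, 6.59, and its score, 114.94 against 140.73, were lower than those of the promoter peak. Its summit was 2.15 kb from the start of Hes7, another Hes family gene, which encodes a repressor of the somite clock. The intervals of these peaks overlapped. The promoter sequence (chr11:68913443-68913642, plus strand) is shown because one of its relaxed X-boxes, both in capitals, was centred 6.5 bp from the summit, nearer than in any other of the 24 peaks. The other was centred 44.5 bp from the summit.
Per1 promoter: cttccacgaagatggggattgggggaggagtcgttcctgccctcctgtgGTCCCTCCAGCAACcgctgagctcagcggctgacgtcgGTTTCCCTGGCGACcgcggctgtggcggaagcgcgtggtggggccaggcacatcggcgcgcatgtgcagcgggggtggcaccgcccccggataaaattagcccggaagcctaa

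Per3 (ENSMUSG00000028957.6) spans chr4:150377761-150418774 (minus strand). Its promoter peak held 160 tags (136.2 to 186.8) with a fold enrichment of 12.24, and the summit was in the untranslated part of exon 1, 226 bp after the start. A second peak of 73 tags, 2.83 kb downstream of the gene, lay inside Uts2, which encodes the peptide urotensin 2. Taking the highest peak of each, Per2 had 4.06 times the tags of Per1 (3.09 to 5.4) and 1.68 times those of Per3 (1.37 to 2.05), and Per3 had 2.42 times those of Per1 (1.81 to 3.28). The Per1 peak in these ratios is the one nearest to Hes7.

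The Cryptochrome genes showed the widest difference between paralogs. Cry2 (ENSMUSG00000068742.5, chr2:92243803-92274200, minus strand) had 4 of its 5 peaks in the top 10% of all peaks. The promoter peak held 381 tags (343.7 to 421.2) over 3778 bp, the widest of the 24, with a fold enrichment of 16.01, and its summit was in the coding part of exon 1, 145 bp after the start of Cry2-002. The highest peak lay 8.83 kb after the start in intron 2. It held 458 tags (417.0 to 501.9) and had a fold enrichment of 33.45 and a score of 2444.19, with 0.545% of all peaks at or above its tags. Of all protein-coding genes, 0.814% had a peak this high in the gene or within 20 kb.

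At the other end of Cry2, in intron 11, a peak of 272 tags (240.6 to 306.3) had the highest fold enrichment of the 24, 46.93, a value that 0.515% of all peaks reached. It was also the densest, with 229 tags per kb against 154 for the highest peak. A weaker peak of 72 tags lay in the same intron. The intron 2 peak and this weaker one also lie inside D930015M05Rik, a long noncoding RNA gene annotated on the opposite strand. The remaining peak, of 352 tags (316.2 to 390.8) and a fold enrichment of 30.13, was 14.0 kb downstream, inside Mapk8ip1, which encodes a scaffold protein of JNK signalling that is abundant in β cells. The start of Mapk8ip1 was also the nearest coding start for both peaks of intron 11, at 4.64 kb for the peak of 272 tags. The summit sequence of the intron 2 peak (chr2:92265261-92265460, minus strand) is shown as the highest of the 24, with its relaxed X-box in capitals, followed by the strict X-box at the intron 11 peak (chr2:92246124-92246152, minus strand).
Cry2 intron 2: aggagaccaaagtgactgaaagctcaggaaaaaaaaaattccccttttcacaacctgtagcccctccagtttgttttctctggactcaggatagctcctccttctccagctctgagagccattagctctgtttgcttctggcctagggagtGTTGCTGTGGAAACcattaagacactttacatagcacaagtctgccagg
Cry2 intron 11: ccctcatgGTTGCCCAGCAACcatctggc

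Cry1 (ENSMUSG00000020038.9) spans chr10:84594447-84647799 (minus strand) and had no promoter summit. Its only peak, from 84624097 to 84625247, was in intron 1, 23.1 kb after the start, and held 49 tags (36.3 to 64.8) with a fold enrichment of 7.86 and a score of 67.28. By tags, 78.4% of all peaks equalled or exceeded it. The highest Cry2 peak had 9.35 times the tags of the Cry1 peak (6.95 to 12.8) and 4.26 times its fold enrichment. Weaker binding at the Cry1 start was not detectable here, since regions with a p-value above 1e-05 are not listed.

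The Rev-erb genes, whose products repress through ROR elements, had peaks in intron 1. Nr1d2 (ENSMUSG00000021775.9, chr14:19036568-19071641, minus strand) had a promoter peak of 122 tags (101.3 to 145.7) with a fold enrichment of 9.89 and the summit 382 bp after the start. Nr1d1 (ENSMUSG00000020889.10, chr11:98629246-98636647, minus strand) had a peak of 50 tags (37.1 to 65.9) with a fold enrichment of 6.83. Its summit lay 1097 bp after the start of Nr1d1-201, just outside the 1 kb limit of a promoter summit, whereas the Per2 summit at 923 bp was just inside. The Nr1d2 peak held 2.44 times the tags of the Nr1d1 peak (1.74 to 3.46). A further peak of 42 tags, 19.4 kb upstream of Nr1d1 and so just within the 20 kb limit, was 811 bp from the start of Msl1, a gene of a histone acetyltransferase complex. The Nr1d1 start was the only one of the 10 outside CpG-rich DNA, with a CpG ratio of 0.438.

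Ordered by the tags of the highest peak, the genes ran Cry2 (458), Per2 (268), Clock (211), Npas2 (167), Per3 (160), Nr1d2 (122), Per1 (66), Nr1d1 (50), Cry1 (49) and Arntl (48). The ratio of tags between neighbours in this order was highest for Nr1d2 over Per1, at 1.85 (1.36 to 2.53), and for Cry2 over Per2, at 1.71 (1.47 to 1.99). It was also above 1 beyond its counting interval, though by little, for Per2 over Clock (1.06 to 1.53), Clock over Npas2 (1.03 to 1.56) and Per3 over Nr1d2 (1.03 to 1.67). The interval included 1 for Npas2 over Per3, at 1.04 (0.835 to 1.3), and for each pair of neighbours from Per1 down to Arntl. Counting error is the smallest error these values can have, since no replicate library was made. The same 5 genes stood first by fold enrichment and by score. Their order was the same by score, but by fold enrichment Clock (23.54) came before Per2 (17.74). For 3 of the 10, Cry2, Per2 and Clock, the highest peak was in the top 10% of all peaks, as for 11.9% of all protein-coding genes. For Arntl, Cry1 and Nr1d1, between 48.2% and 49.3% of all genes had a peak at least as high, close to the 55.2% that had any.

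**Figure D3:**
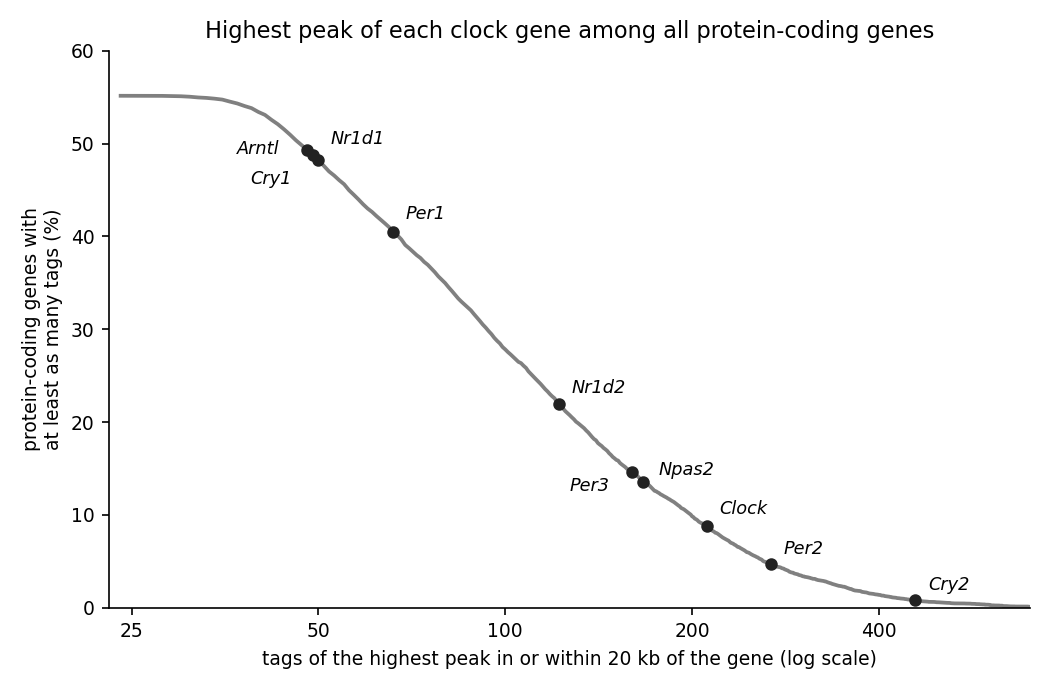
The highest peak of each clock gene among all protein-coding genes. The x axis is the number of tags of the highest peak in or within 20 kb of a gene, on a log scale, and the y axis is the percentage of the 22367 genes that have at least as many. The line is all genes and the points are the 10 clock genes, from Cry2, which 0.814% of genes match, to Arntl, which 49.3% match.

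Words recognised by Rfx and clock factors were counted on both strands in the 200 bp around each summit. A match is a description of the letters and does not show which protein was bound. The strict X-box occurred in 3 of the 24, or 12.5%, against 6.42% of all peaks and 0.253% of windows 1 kb to the right of the summits. These were the intron 11 peak of Cry2, the intron 1 peak of Nr1d1 and the peak downstream of Per1, with centres 79, 86.5 and 73 bp from the summit, so 0 of the 3 lay within 50 bp. None of the 8 promoter peaks had one in this window, although the Per3 promoter peak had 1 further from its summit. The relaxed form, which matched at the same place in these 3 but does not cover every possible strict X-box, occurred in 14 of the 24, or 58.3%, against 45.9% of all peaks and 22.8% of the shifted windows. In the 100 bp around the summit the order turned, with 6 of the 24, or 25.0%, against 31.4% of all peaks.

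The words of the clock itself were found at few of these summits. The E-box CACGTG occurred in 2 of the 24, or 8.33%, against 2.73% of all peaks and 2.9% of the shifted windows. These were at Nr1d1 and Nr1d2, centred 14.5 and 69.5 bp from the summit. The related E′-box CACGTT and the cAMP response element TGACGTCA occurred in 0 of the 24, and in 3.33% and 0.287% of all peaks. The D-box TTANGTAA occurred in 1, or 4.17%, at Nr1d1, against 0.888% of all peaks and 1.57% of the shifted windows. The ROR core TAGGTCA occurred in 1, or 4.17%, at Cry1, against 1.93% of all peaks and 2.03% of the shifted windows. None of these words contains another, and in a list of 24 peaks a count of 1 or 2 sets no rate.

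The Cry1 and Nr1d1 peaks shown above were low in tags but held several of these words. In Cry1, 2 ROR cores in opposite orientation were centred 7 and 58 bp from the summit, the nearer one at 84624658 to 84624664. A relaxed X-box, from 84624664 to 84624677, lay between them and shared 1 base with the nearer core. In Nr1d1, the E-box at 98635468 to 98635473 was nearest to the summit, followed by the D-box at 98635394 to 98635401 and the strict X-box at 98635363 to 98635376. This peak was the only one of the 24 with a D-box within 100 bp of the summit. It was thus also the only one to combine an E-box, a D-box and a strict X-box there. How many of all peaks hold this combination was not counted.

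**Figure D4:**
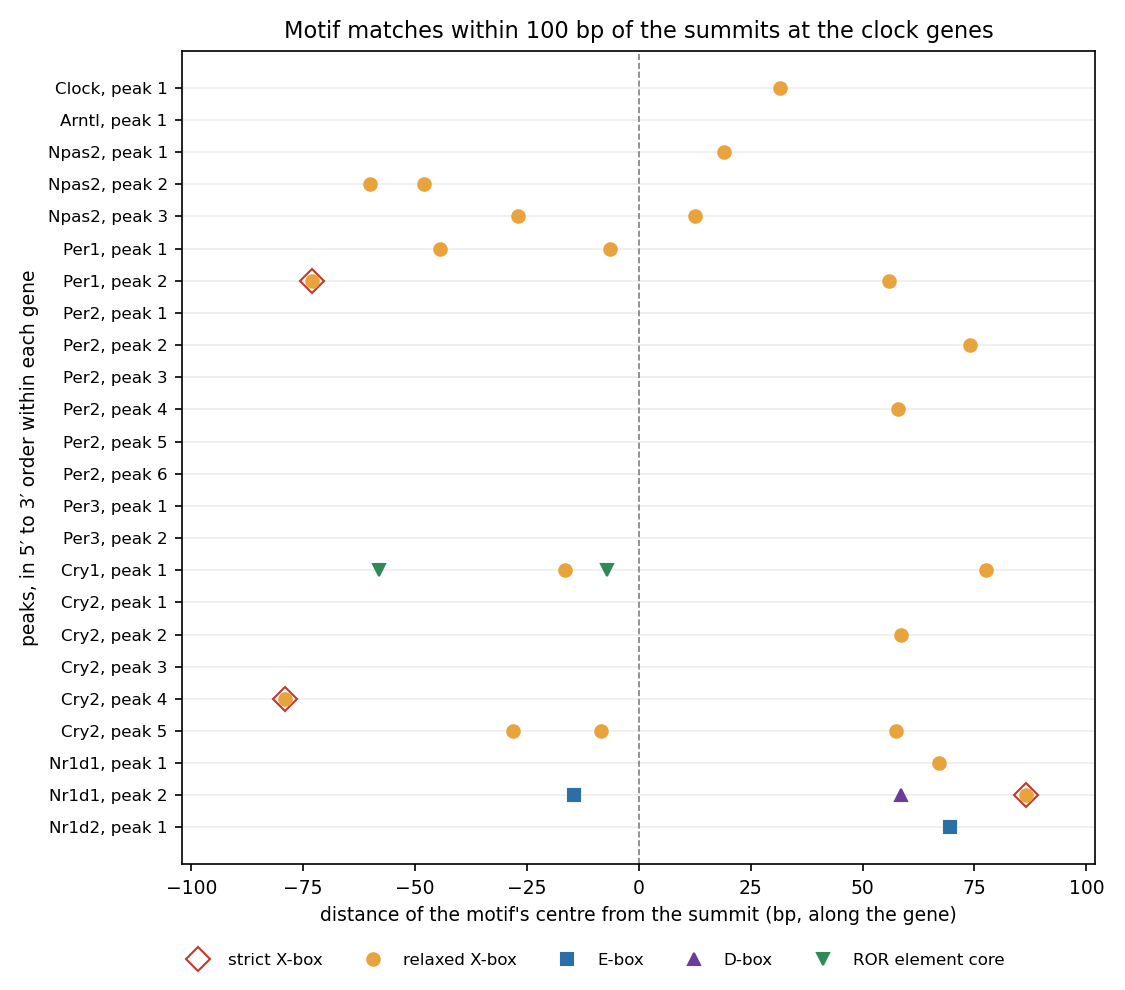
Positions of the words found within 100 bp of the 24 summits. The x axis is the distance in bp of the centre of the word from the summit, along the direction of the gene, and each row is a peak, numbered 5′ to 3′ within its gene. The 3 strict X-boxes lie more than 50 bp from the summit, and Nr1d1, peak 2, is the row with an E-box, a D-box and a strict X-box.

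The wider pathway was described with 27 other genes that encode paralogs, regulators, kinases, ubiquitin ligases and outputs of the clock. A summit in the gene or within 20 kb was found for 18 of the 27, or 66.7%, and a promoter summit for 7, or 25.9%, both nearer to the shares of all genes, 55.2% and 22.6%, than those of the 10 clock genes were. Those with a promoter summit included Bhlhe40, Nfil3 and Sirt1. A peak in the top 10% was found at 4 of the 27, or 14.8%, close to the 11.9% of all genes. Dbp, an activator that binds the D-box, had 6 summits within 20 kb, the highest 3.65 kb after its start with 374 tags and a fold enrichment of 24.85. The neighbourhood of Dbp is dense in genes, and the other 5 summits were nearer to the starts of Car11, Sphk2, Rpl18, Fam83e and Spaca4. Nfil3, a repressor that binds the D-box, had a peak 482 bp upstream of a start with 237 tags and a fold enrichment of 29.66. Bhlhe41, an E-box repressor, had one 2.32 kb after its start with 200 tags. Sirt1, a deacetylase that acts on clock proteins, had one 27 bp upstream of its start with 185 tags. The nearest annotated start on the opposite strand, that of Dnajc12, was 739 bp from the Sirt1 start. Arntl2, the paralog of Arntl, had 1 peak, of 104 tags, 4.18 kb from its start.

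No summit was found within 20 kb of the other 9 genes. These were Rorb, Hlf, Csnk1d, Btrc, Fbxw11, Timeless, Nampt, Ppargc1a and Gsk3b. Of the paralogous kinases that phosphorylate Per proteins, Csnk1d was thus without a summit, and Csnk1e had 1 peak of 42 tags, 36.2 kb from its start and nearest to that of Tmem184b. The shares of both lists and of all genes are set side by side in the bar chart.

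**Figure D5:**
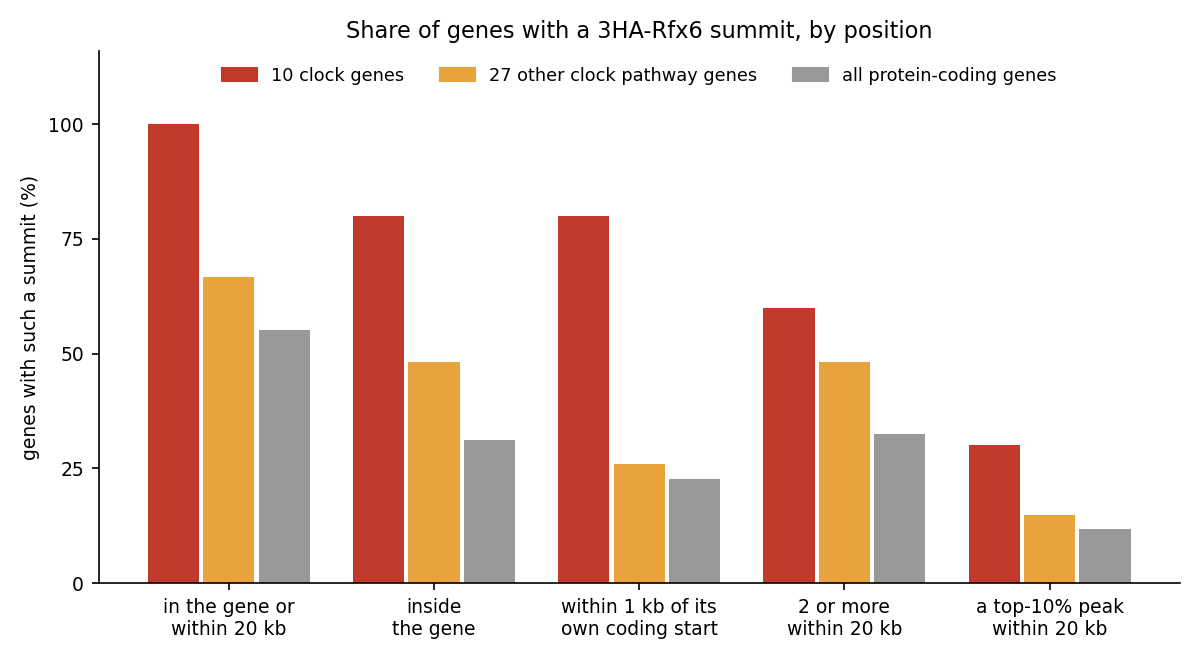
Share of genes with a summit of each kind. The y axis is the percentage of the 10 clock genes (red), of the 27 other clock pathway genes (orange) and of all 22367 protein-coding genes (grey). For summits within 1 kb of a coding start of the gene itself, 8 of the 10 clock genes, 25.9% of the other pathway genes and 22.6% of all genes have one.

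The background behind all fold enrichments rests on a control with few tags at distinct positions. HA-Rfx6 had 49443917 tags (reads of 50 bases) and 33949757 at distinct positions, or 68.7%. HA-Ctrl had 16911298 and 3567375, or 21.1%, so 9.52 times as many ChIP as control tags entered the comparison. Its effect on the clock genes was not tested. The false discovery rate (FDR) that the peak caller attached to the 24 peaks ranged from 1.84% to 12.44%, and the highest value belonged to the Cry2 peak with the most tags. That peak also had the highest score of the 24, 2444.19. The lowest FDR belonged to the peak with the lowest score, 55.19, downstream of Per2. This FDR thus does not grade the 24 peaks as the score does.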

How the data were processed

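ChIP-seq was done with 1 library of 3HA-Rfx6 transfected Min6b1 cells and 1 control. Per the labels, reads were processed with CASAVA 1.8.2, Bowtie and MACS 1.4.2 on mm9, with roles not given. Per the file headers, MACS called peaks against the control with a p-value cutoff of 1e-05, a band width of 300 bp and at most 1 tag per position. The authors deposited, for each peak, the count of tags, the fold enrichment as a ratio to background, a score that is the p-value as minus 10 times its log10, and, in percent, an FDR. Libraries were not pooled.

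Summits (start + summit − 1) were compared with GENCODE M1 on NCBIM37, the same build as mm9, and 0 peaks passed a chromosome end. Protein-coding genes on the mitochondrial chromosome were left out, and starts are those of protein-coding transcripts. Introns were numbered in the transcript with the most exonic bases. Words were searched in the reference sequence. The work used Python 3.11.15 with pandas 2.3.3, numpy 2.4.6, matplotlib 3.10.9 and scipy 1.17.1, and gene assignment and word search were tested on simulated data. With 1 library per condition no test was made: Poisson intervals for tags and exact binomial intervals for ratios of tags, at 95%, cover counting error only, and duplicate removal limits tags in a peak.

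All 10 genes are named, with the other pathway genes that had a top 10% peak, and the genes with the nearest start where that is not the clock gene. Genes without a summit, Bhlhe40, Arntl2, Csnk1e, Dnajc12, and Dbp's neighbours were named after their values were seen. The genes and lists were chosen with earlier results of these data known. Alternatives were other distances, stricter peak sets, a limit on the FDR, overlap in place of summits, other starts, rankings and search windows.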

Additional observations from a re-analysis of the deposited data

How the results depend on the processing

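No paired analysis was possible because each condition is 1 library and all values come from 1 peak list, which also leaves no replicate to omit. All 10 clock genes kept a peak within 10 kb (47.1% of all genes) or 50 kb (67.8%), by any overlap of the peak (55.5%) and with protein-coding transcripts only (55.0%). The same held when a peak had to be nearest to the start of the clock gene itself. That alternative was chosen after seeing the data. So were the CpG-rich background, the one limited to the range of length of the clock genes, and the starts of all transcripts. Being nearest to the start of the clock gene left 14 of the 24 peaks, and the gene body alone left 15. Stricter peak sets removed more. With the 50% of peaks with the highest scores, 6 clock genes (37.8% of all genes), 15 peaks and 11 other pathway genes remained. With a fold enrichment of at least 10, 5 clock genes (32.3%), 5 with a promoter summit (9.87%), 13 peaks and 9 other pathway genes remained. An FDR of at most 1% left 10 of all 23308 peaks, and 0 clock genes (0.0581% of all genes), 0 with a promoter summit, 0 peaks and 0 other pathway genes. That limit does not give a stricter set by score. Of the 24 peaks, the one with the lowest score, 55.19, had the lowest FDR, 1.84%. The one with the highest score, 2444.19, had the highest FDR, 12.44%. The clock genes with a promoter summit numbered 7 when only the most upstream start counted (20.2% of all genes), and 9 with a limit of 5 kb (31.0%). A strict X-box was in 0 peaks within 50 bp of the summit (5.05% of all peaks) and in 4 over the whole peak (8.87%). With the relaxed form in its place the count within 100 bp of the summit was 14. Counting only whole words within 50 bp, also tried after seeing the data, gave 6, or 25.0%, below the 31.4% of all peaks. An E-box was in 1 peak within 50 bp (1.21% of all peaks) and in 6 over the whole peak (18.9%). In all, 18 of 43 alternatives moved a count by more than 1.5 times. Depth limits what can be listed: the listed peak with the fewest tags held 24.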

Other observations

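Over the whole length of the peaks, the ROR core was present in 6 of the 24, or 25.0%, against 11.6% of all peaks. The E-box was in 6, or 25.0%, against 18.9%, and the D-box in 4, or 16.7%, against 8.71%. The E′-box went the other way, with 4, or 16.7%, against 18.3%. The cAMP response element was in 2, or 8.33%, against 1.68%. Both peaks with a cAMP response element were in Cry2, in introns 2 and 11. A longer peak holds more words by its length alone, and the 24 had a median length of 1389 bp against 1196 bp for all peaks.

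The summits next beyond the 20 kb limit were 24.1 to 76.2 kb from the genes. They held 41 to 143 tags, the highest of them at Per3 and the lowest at Nr1d2.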
